A study of Mus musculus with 2 samples.

Results

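The genes described here are 10 transcription factor genes that pattern the axes of the optic cup, the embryonic bowl of tissue that forms the retina and its rim. They are the homeobox genes Vax1, Vax2, Meis1 and Meis2, the T-box genes Tbx2, Tbx3 and Tbx5, the nuclear receptor genes Nr2f1 and Nr2f2, and the transcriptional cofactor gene Dach1. They were chosen by name, with their signals in these data already known, so their values are given as a description and support no test. The probe annotation assigned 28 of 34958 probe sets with 1 gene symbol to them, and the 10 genes were among 18194 named genes.

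Each array measured 1 cell. The embryonic cell was picked at day 12.5 of gestation (E12.5), and the newborn cell at postnatal day 0 (P0), the day of birth, both from retinas of CD1 mice. CD1 is an outbred albino stock, and no treatment or genetic change separated the 2 cells. Retinas were dissociated before the cells were picked, and the labels call both cells peripheral but give no dorsal or ventral, nasal or temporal position. The submitters assigned both cells to the ciliary body, the part of the cup rim that later secretes aqueous humour, from their expression after the arrays were read. With 1 cell per age there was no replicate check and no test, and the values compare a single pair of cells. Age, cell state, chance differences between cells and transcripts lost before or during amplification cannot be told apart.

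Position in the optic cup is set by signals from its surroundings. BMP signals dorsally switch on T-box genes, while hedgehog signals ventrally and at the optic stalk switch on Vax genes, and the opposing factors later guide retinal axons to matching places in the brain. Nr2f1 and Nr2f2 (COUP-TFI and COUP-TFII) are orphan nuclear receptors that divide the early optic vesicle into retina, pigment epithelium and stalk. Meis1 and Meis2 are homeodomain proteins that act with Pbx partners and keep eye progenitors growing, and Dach1 is a cofactor of the Eya proteins and their homeodomain partners.

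A signal was called above background when it exceeded a limit of 237 on the E12.5 array or 341 on the P0 array. Each limit was the 99th percentile of 202 probe sets of gene families not known to act in the eye, such as odorant receptors and keratin-associated proteins. To call a gene higher in one of the cells, each signal was first raised to its limit, and the brighter one had to be above its limit and at least 4 times the dimmer. A dimmer signal under its limit makes the fold a lower bound, written "at least". The median signal over all 45101 probe sets was 43.2 in the embryonic cell and 42.2 in the newborn cell. Hybridisation spike-ins were 1.85-fold brighter on the P0 array, and scaling to them lowers every log2 ratio (P0 over E12.5) given below by 0.89.

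The Vax paralogues were detected in opposite cells. Vax2, the homeobox factor of the ventral retina, had a signal of 5823 in the embryonic cell and 5.38 in the newborn cell, at least 17.1-fold higher at E12.5. Vax1, the homeobox factor of the optic stalk and ventral midline, had 6.76 in the embryonic cell and 4946 in the newborn cell on 1 probe set, at least 20.9-fold higher at P0. A second Vax1 probe set was below the limit in both cells, with 129 at E12.5 and 106 at P0, so the P0 signal of Vax1 rests on 1 of 2 probe sets. The signals placed Vax2 at percentile 96.4 of the E12.5 array and Vax1 at percentile 95.7 of the P0 array. With the mean over its probe sets, the log2 ratio of Vax1 was at least 1.61, a bound too low for the 4-fold call because the E12.5 mean was under its limit.

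The dorsal T-box genes had their higher signals in the newborn cell where they were detected. Tbx2, a repressor expressed in the dorsal cup, was the only member above background in both cells on the same probe set, with 1839 in the embryonic cell and 6122 in the newborn cell. That is a 3.33-fold difference (log2 ratio 1.73), below the 4-fold call, and the log2 ratio was 0.84 with the arrays scaled to the spike-ins.

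Tbx3, the close relative of Tbx2, was above background in the newborn cell on 2 of 5 probe sets. The first had 132 in the embryonic cell and 4918 in the newborn cell, at least 20.8-fold higher at P0. The second had 8.62 and 6712, at least 28.3-fold higher at P0. The other 3 Tbx3 probe sets were below the limit in both cells, the brightest reaching 73.6 in the embryonic cell and 46.9 in the newborn cell. With the mean over its probe sets Tbx3 was above background in neither cell.

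Tbx5, the T-box factor most restricted to the dorsal retina, was not above background in either cell. Its 2 probe sets gave 7.35 and 12.4 in the embryonic cell and 6.47 and 43.5 in the newborn cell. Reverse transcription from 1 cell can lose a transcript, so Tbx5 was not detected at this sensitivity and cannot be called absent. The same holds for every other member in a cell where it was below background.

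**Figure D1:**
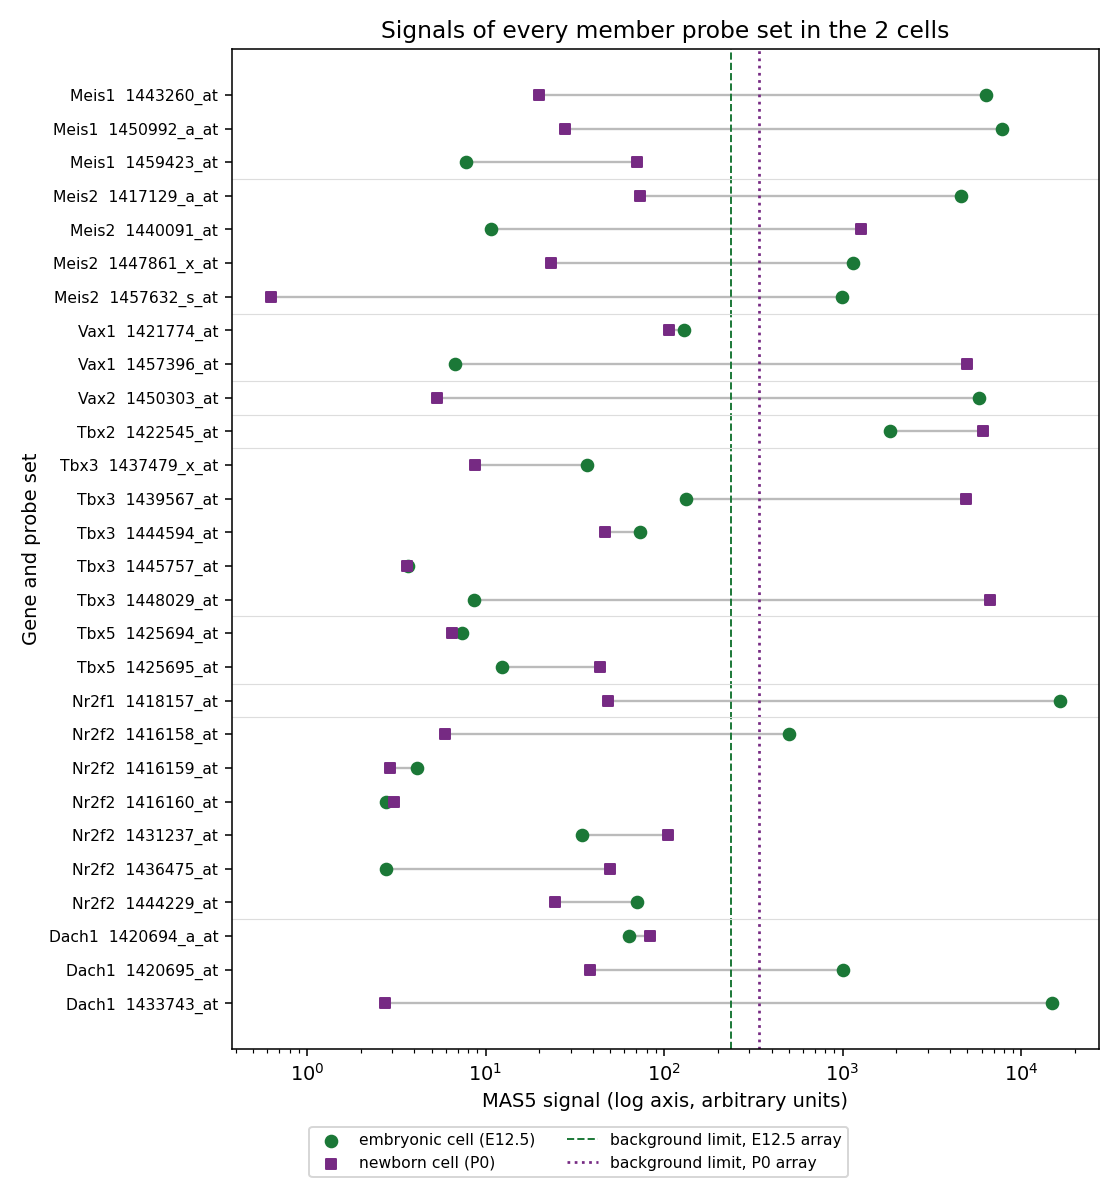
MAS5 signal (horizontal log axis, arbitrary units) of each of the 28 probe sets of the 10 genes in the embryonic cell (circles) and the newborn cell (squares), joined by a line, with the background limits of 237 and 341 as vertical lines. Long lines run in both directions: Meis1, Vax2, Nr2f1 and Dach1 have circles on the right, Vax1 and Tbx3 have squares on the right, and Meis2 has both.

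The nuclear receptor gene Nr2f1 was detected in the embryonic cell only. Its single probe set gave 16401 in the embryonic cell, at percentile 99.2 of that array, and 48.7 in the newborn cell, at least 48.1-fold higher at E12.5. Its paralogue Nr2f2 was detected on 1 of 6 probe sets, with 502 in the embryonic cell and 5.93 in the newborn cell. That signal is 1.47-fold over the limit of the P0 array, so no 4-fold call was possible. The other 5 Nr2f2 probe sets lay between 2.77 and 70.4 in the embryonic cell and between 2.90 and 106 in the newborn cell. Of 194 genes with 6 probe sets and at least 1 of them above a limit, 28.9% likewise had no more than 1 above it in each cell.

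The cofactor gene Dach1 had signals above background in the embryonic cell on 2 of 3 probe sets. The brighter had 14914, at percentile 99.0 of that array, and 2.75 in the newborn cell, at least 43.8-fold higher at E12.5. The other had 1006 and 38.2, at least 2.95-fold higher at E12.5. The third was below both limits, with 63.5 in the embryonic cell and 83.3 in the newborn cell. The 4-fold call for Dach1 was lost with the mean over probe sets (log2 ratio -1.53). It was also lost under quantile normalisation (-1.59), where the probe set with 1006 and 38.2 stood for the gene. Both values are bounds, because the P0 signal was under its limit.

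Both Meis genes were detected in the embryonic cell. Meis1 had 7765 in the embryonic cell and 28.0 in the newborn cell on 1 probe set, at least 22.8-fold higher at E12.5. A second Meis1 probe set had 6354 and 20.0, at least 18.7-fold higher at E12.5, and the last was below both limits with 7.72 and 70.1. The 2 detected probe sets thus gave the same direction and nearly the same bound.

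Meis2 was the one member whose probe sets were called in opposite directions. The probe set that stood for the gene had 4613 in the embryonic cell and 73.1 in the newborn cell, at least 13.5-fold higher at E12.5. A pair of further probe sets, whose names mark possible cross-hybridisation, had 1140 and 994 in the embryonic cell and 23.3 and 0.631 in the newborn cell. The fourth had 10.7 in the embryonic cell and 1261 in the newborn cell, at least 5.32-fold higher at P0. Meis2 was therefore detected in both cells, but never on the same probe set. Of 745 named genes with at least 2 called probe sets, 117 (15.7%) had calls in both directions, and of the 3 members with at least 2 (Meis1, Meis2 and Tbx3) only Meis2 did. With the mean over probe sets the log2 ratio was -1.09 for Meis1 and -0.51 for Meis2. Both are bounds with the P0 mean under its limit, and neither reached the 4-fold call.

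**Figure D2:**
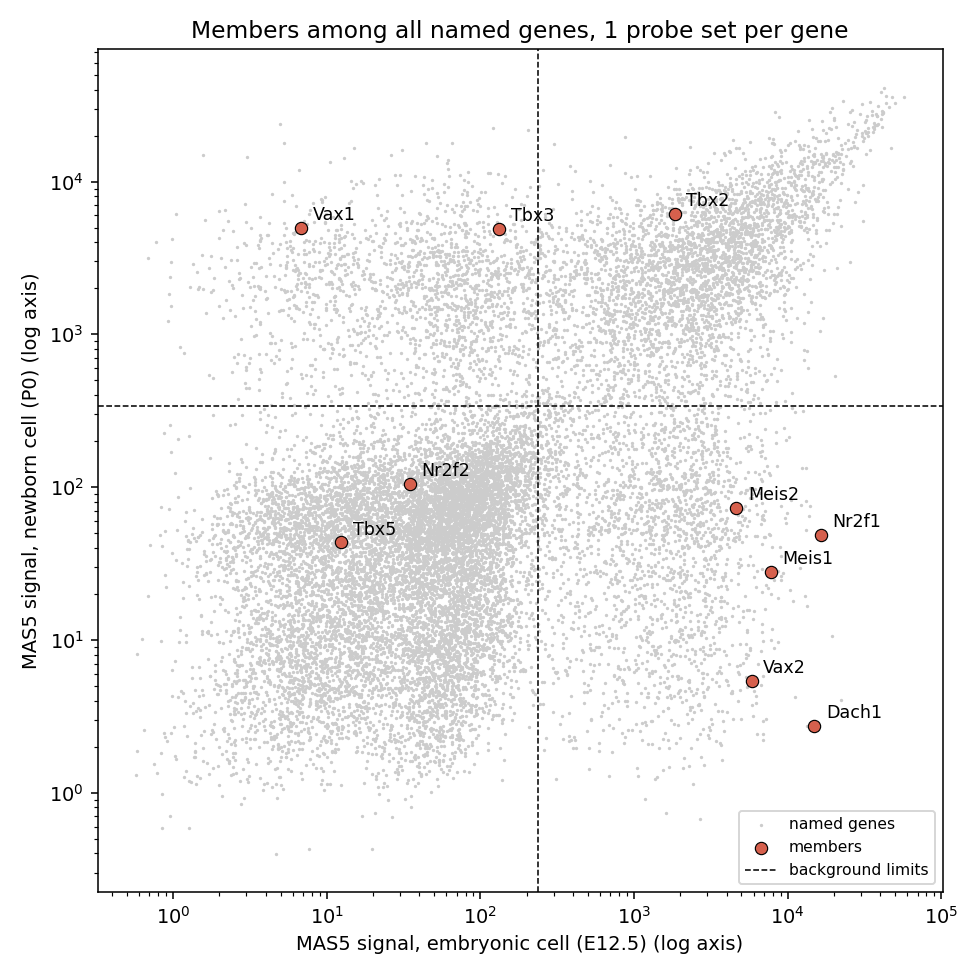
MAS5 signal in the embryonic cell (horizontal log axis) against the newborn cell (vertical log axis) for 18194 named genes (grey) and the 10 members (red), 1 probe set per gene, with the background limits dashed. Meis1, Meis2, Vax2, Nr2f1 and Dach1 lie in the lower right, Vax1 and Tbx3 in the upper left, Tbx2 in the upper right, and Tbx5 and Nr2f2 below both limits.

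Counted with 1 probe set per gene, 6 of the 10 genes were above background in the embryonic cell and 3 in the newborn cell, against 30.8% and 28.5% of all named genes. Tbx2 was the 1 member above it in both, where 18.9% of named genes were. The embryonic cell had 5 members at least 4-fold higher (Nr2f1, Dach1, Meis1, Vax2 and Meis2), against 7.42% of named genes, and the newborn cell 2 (Vax1 and Tbx3), against 9.46%. In each of these 7 genes the dimmer cell was below its limit, where a lost transcript cannot be told from absence. These counts follow from how the genes were chosen, and nothing is read from their excess.

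Nr2f2 is not in these counts, because the probe set that stands for a gene is the one with the highest mean log2 signal over both cells, and for Nr2f2 that one had 34.7 in the embryonic cell and 106 in the newborn cell. Taking the brightest probe set of each gene instead, a choice made after its values were seen, 7 members were above background in the embryonic cell. By probe set, 11 of 28 were above the limit in the embryonic cell and 5 in the newborn cell, against 24.5% and 22.5% of all probe sets with 1 symbol. Called higher in the embryonic cell were 6 probe sets and in the newborn cell 4, against 5.77% and 7.44%. The remaining 13 probe sets above neither limit reached at most 129 in the embryonic cell and 106 in the newborn cell, while the dimmest detected ones had 502 and 1261. At the lower limits of the 95th percentile, 118 and 97.3, the first Tbx3 probe set was above the limit in both cells too, as was the second Vax1 probe set, and the Nr2f2 probe set with 106 in the newborn cell was above the limit there.

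The calls depended on how the probe sets of a gene were combined. With the mean log2 signal over probe sets, Nr2f1 and Vax2, which have 1 probe set each, were the only members still 4-fold higher in a cell. Leaving out cross-hybridising probe sets, taking the 95th percentile or bacterial controls for the limit, and scaling to the spike-ins each left 5 and 2 members called. The same calls over all named genes numbered 1350 for the embryonic cell and 1721 for the newborn cell, a split that turned to 2164 and 1098 with the spike-in scaling.

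**Figure D3:**
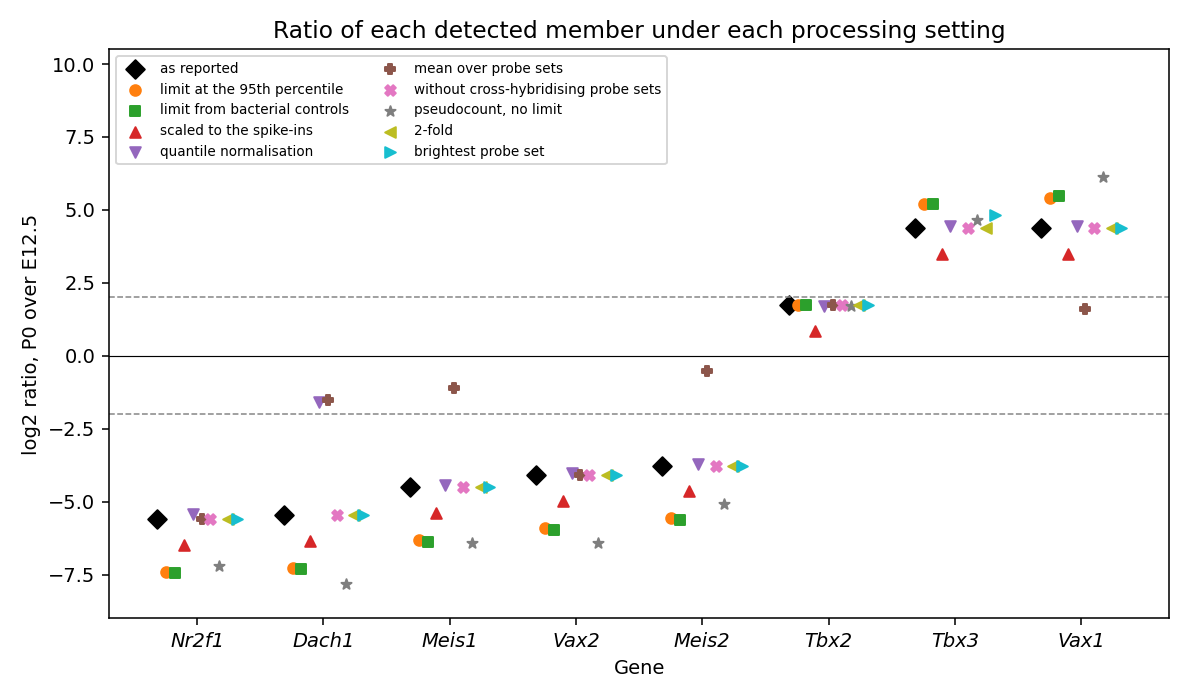
Ratio of newborn to embryonic signal (vertical axis, log2) of the 8 members detected on the probe set that stands for the gene, under the reported setting (black diamonds) and the alternatives that use a limit or a pseudocount (coloured marks), with dashed lines at 4-fold. None of these 8 changes sign, though most settings reuse the same probe set. Averaging over probe sets brings Dach1 to -1.53, Meis1 to -1.09, Meis2 to -0.51 and Vax1 to 1.61, inside the dashed lines. These 4 values are bounds, because the dimmer cell was under its limit.

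Promoter sequence was matched in RefSeq for 6 of the 10 genes (Meis1, Meis2, Vax1, Nr2f1, Nr2f2 and Dach1). The windows of 250 bases before the start site are shown for Nr2f1 and Dach1 as examples of genes called higher at E12.5, and for Vax1 as the gene called higher at P0 that has a window. All are from build GRCm38.p6, on the minus strand and written 5′ to 3′ along the gene. They lie at chr13:78198874-78199123 for Nr2f1 (the outer of 2 start sites), chr14:98169766-98170015 for Dach1 and chr19:59170398-59170647 for Vax1. Capitals mark the Meis motif.
Nr2f1: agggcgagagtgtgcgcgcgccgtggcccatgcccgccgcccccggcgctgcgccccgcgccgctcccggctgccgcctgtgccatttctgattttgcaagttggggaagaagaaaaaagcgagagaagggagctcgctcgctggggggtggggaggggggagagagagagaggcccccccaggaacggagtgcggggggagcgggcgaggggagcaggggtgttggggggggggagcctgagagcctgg
Dach1: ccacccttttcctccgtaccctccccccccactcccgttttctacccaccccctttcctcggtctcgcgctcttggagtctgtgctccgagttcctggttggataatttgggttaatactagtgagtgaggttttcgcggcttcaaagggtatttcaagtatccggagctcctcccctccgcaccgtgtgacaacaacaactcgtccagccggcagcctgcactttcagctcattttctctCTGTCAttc
Vax1: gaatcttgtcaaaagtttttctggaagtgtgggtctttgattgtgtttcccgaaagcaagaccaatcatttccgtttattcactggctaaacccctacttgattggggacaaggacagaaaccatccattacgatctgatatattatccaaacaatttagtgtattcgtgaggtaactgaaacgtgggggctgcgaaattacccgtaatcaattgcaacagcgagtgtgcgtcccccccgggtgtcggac

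The sequences differ in base composition. G and C made up 72.0% of the Nr2f1 window, 54.8% of the Dach1 window and 44.8% of the Vax1 window, against a median of 52.4% over 32851 windows of the same length. The windows were searched on both strands for TGACAG (bound by Meis proteins), AGGTCA (bound by nuclear receptors), AGGTGT (a T-box core) and TAATTA (a homeodomain site), letters that 15.9%, 14.0%, 11.8% and 4.84% of all windows hold. The 4 motifs do not overlap in the member windows. One match was found in the 7 windows of the 6 genes, the Meis motif on the opposite strand of Dach1, starting 9 bases before the start site.

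Dorsal and ventral genes of the surrounding pathway were detected in both cells. Of 12 dorsal signals and markers, 5 were above background in the embryonic cell and 3 in the newborn cell, with 3 at least 4-fold higher at E12.5 and 1 at P0. Over all named genes, 30.8% and 28.5% were above background in these cells, and 7.42% and 9.46% were called higher. The same shares apply to the other related lists below, and no excess or deficit is read from their counts. Aldh1a1, the retinoic acid enzyme of the dorsal retina, had 11975 in the embryonic cell and 29.5 in the newborn cell (at least 35.2-fold). Bmpr1b, a BMP receptor gene on this list but known from the ventral retina, had 1372 and 57.8 (at least 4.03-fold). The FGF receptor gene Fgfr2 had 2013 and 72.7 (at least 5.91-fold). Each of these 2 calls rests on 1 of 3 probe sets. Bmp7, a BMP ligand gene, had 116 in the embryonic cell and 1905 in the newborn cell (at least 8.04-fold). Bmp4, the ligand that acts upstream of Tbx5 in the dorsal cup, was above background in neither cell. The BMP receptor gene Bmpr1a (1315 and 2336) and the ephrin gene Efnb2 (324 and 396) exceeded it in both, with less than a 4-fold difference. Bmpr1a did so on 1 of 6 probe sets and Efnb2 on 1 of 4.

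Of 11 ventral and stalk genes, 4 were above background in each cell and 3 in both. Aldh1a3, the retinoic acid enzyme of the ventral retina, had 5900 in the embryonic cell and 300.1 in the newborn cell (at least 17.3-fold), and all 3 of its probe sets were called higher at E12.5. The embryonic cell thus had the enzyme genes of both the dorsal and the ventral retina above background, beside ventral Vax2 and dorsal Tbx2. Ptch1, the hedgehog receptor and a target of the pathway, was above background in both cells and 9.95-fold higher in the newborn cell (433 and 4307). Sema5a, a guidance gene of the optic nerve, was at least 27.0-fold higher there (1.99 and 6397), on 1 of 4 probe sets. Ephb3, a ventral Eph receptor gene, had 2193 and 2102, and the BMP receptor gene Bmpr2 had 769 and 1723. Shh and its target Gli1 were above background in neither cell.

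Of 11 nasal and temporal genes, 3 were above background in the embryonic cell and 2 in the newborn cell. Efna5, an ephrin ligand gene that guides retinal axons, was 26.3-fold higher in the embryonic cell (9603 and 365), on 1 of 2 probe sets. The nasal homeobox gene Hmx1 (1110 and 90.6) and the ephrin gene Efna2 (576 and 126) were above background in that cell too. The Eph receptor gene Epha4 was at least 9.95-fold higher in the newborn cell (34.0 and 2359), on 1 of 5 probe sets. Foxd1, the temporal forkhead factor gene, was above background in neither.

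The median log2 ratio over the genes above background in at least 1 cell was -0.86 for the dorsal list (6 genes), 1.16 for the ventral list (5 genes) and -1.23 for the nasal and temporal list (4 genes), beside 0.03 over 7338 named genes. Values below a limit enter these medians at their bound. The dorsal median lies between Bmpr1b (-2.01, a bound) and Efnb2 (0.29), so its sign depends on which genes are listed. Bmpr1b is known from the ventral retina, so this median is not one of dorsal genes alone. The ventral median is the ratio of Bmpr2. With 4 to 6 genes each, the medians describe a few genes of these cells only, and no contrast between the lists is read from them.

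Relatives and partners of the members were detected unevenly. Of 8 relatives and partners of the Meis genes, 5 were above background in the embryonic cell and 2 in the newborn cell. Tgif2, a TALE homeobox repressor gene, was at least 13.6-fold higher at E12.5 (4630 and 144). Pknox2 (2591 and 1098) and Tgif1 (1507 and 830), of the same TALE class, were above background in both cells and differed by less than 4-fold. The Meis partner Pbx2 had 527 and 224, and Pbx4 had 291 and 157. All 3 probe sets of Pbx2 were above the E12.5 limit, and 2 of them were called higher at E12.5. The median log2 ratio of the 5 was -0.86, with Pbx4 entering on the P0 side only because the P0 limit is above its E12.5 signal. None of 12 other T-box genes was above background in either cell, so Tbx2 and Tbx3 were the only detected genes of that family among those listed here. In 3 of 8 relatives and partners of the Nr2f genes the signal was above background in the embryonic cell, and in 3 in the newborn cell.

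Within the Nr2f list the partner gene Bcl11a, whose protein binds COUP-TF receptors, had 2215 in the embryonic cell and 277 in the newborn cell (at least 6.50-fold), although another of its probe sets was called higher at P0. The orphan receptor genes Nr2e1 (60.6 and 3365, at least 14.2-fold) and Nr2c2 (6.39 and 2701, at least 11.4-fold) were higher in the newborn cell. Nr2e1 was called on 1 of 2 probe sets and Nr2c2 on 1 of 6. Another probe set of Nr2c2 was called higher at E12.5. Nr2f6, the third COUP-TF relative, had 833 and 35.8, and Nr2c1 had 449 and 892. The median log2 ratio of the 5 detected genes was 0.99.

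Of 10 relatives and partners of Dach1, 1 was above background in the embryonic cell and 3 in the newborn cell, and none in both. Ski and Skil encode related corepressors that share a domain with Dach1. Skil was at least 10.7-fold higher in the embryonic cell (3636 and 2.13). Ski was at least 9.75-fold higher in the newborn cell (229 and 2310). Each of these calls rests on 1 of 2 probe sets. Ski lay just under the E12.5 limit on this probe set, and another of its probe sets was above it. Six5, a homeobox gene of the sine oculis family, was at least 14.9-fold higher in the newborn cell (197 and 3541), and the phosphatase cofactor gene Eya2 had 6.99 and 930. The median log2 ratio of these 4 genes was 2.63. Of 4 relatives and partners of the Vax genes, the beta-catenin gene Ctnnb1 exceeded both limits (21287 and 19377) and Tcf7l2, its DNA-binding partner, in the embryonic cell (266 and 60.5). The homeobox genes Emx1 and Emx2 were above it in neither. No median is given for these 2 detected genes, because Tcf7l2 at E12.5 was dimmer than the P0 limit that stands in for its P0 signal.

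**Figure D4:**
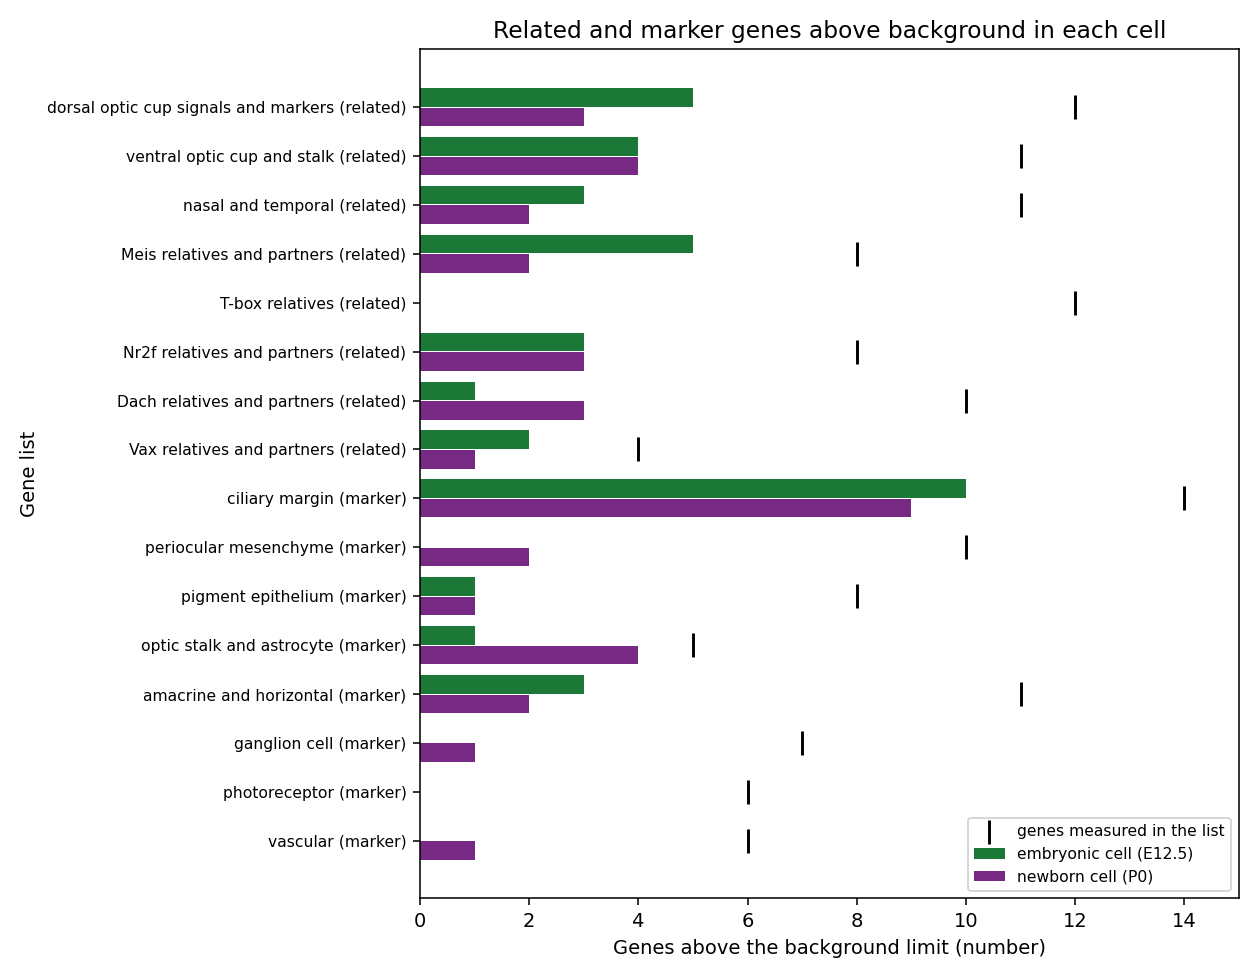
Number of genes above background (horizontal axis) in the embryonic cell (green) and the newborn cell (purple) for 8 lists of related genes and 8 lists of cell type markers, with a tick at the number of genes measured in each list. Ciliary margin markers have the longest bars, 10 and 9 of 14, while no T-box relative and no photoreceptor marker was above background.

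The label of the cells was checked against marker lists. Of 14 ciliary margin genes, 10 were above background in the embryonic cell, 9 in the newborn cell and 7 in both, with summed signals of 93202 and 56504. The shares over all named genes were 30.8%, 28.5% and 18.9%, and the first 2 apply to the other marker lists too. At least 4-fold higher were 5 at E12.5 (Cdon, Wfdc1, Otx1, Gja1 and Mecom) and 2 at P0 (Sox9 and Optc), against 7.42% and 9.46%. Otx1, Gja1 and Mecom were below the P0 limit, and Msx1 and Wls below both limits. The submitters used expression to assign the cells, so this list is not independent evidence of the label. All 6 photoreceptor genes measured were below the limit in both cells, as were 6 of 7 ganglion cell genes, the other being Ebf3 in the newborn cell (1041). Meis2 and the Nr2f genes are also known from amacrine cells. Of 11 amacrine and horizontal genes, Gad2 (4515 and 6459) and Slc6a9 (480 and 2949) were above background in both cells and Slc32a1 in the embryonic cell (438). The defining factors Tfap2a, Tfap2b, Ptf1a and Prox1 were below the limit in both, between 17.1 and 44.3 in the embryonic cell and between 5.39 and 85.5 in the newborn cell. The summed signal of the list was 5693 and 10100.2.

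Summed signals were higher in the newborn cell for 6 of the 7 marker lists other than the ciliary margin, photoreceptor genes being the exception (316 and 95.3). These sums include signals below the limits and are not scaled to the spike-ins, which were 1.85-fold brighter on the P0 array. The amacrine and horizontal sums differ by less than that factor. In the newborn cell the ganglion cell sum was mostly Ebf3 and the pigment epithelium sum mostly Rlbp1. No general rise of markers is read from the sums. Vax1 marks the optic stalk. Pax2 on the stalk and astrocyte list was not measured, and the 5 genes measured are astrocyte genes. The list therefore gives no reading of stalk identity. Of the 5 genes measured, Slc1a3 was above background in the embryonic cell. Slc1a3 (5984), Aldoc (17987), S100b (4787) and Gfap (1073) were above it in the newborn cell. Their summed signal was 2082 in the embryonic cell and 29902 in the newborn cell, and Aqp4, with 98.3 and 70.1, was below the limit in both. T-box genes are also expressed in mesenchyme around the eye. Of 10 periocular mesenchyme genes, 0 were above background in the embryonic cell and 2, Col1a2 (2653) and Pdgfra (3088), in the newborn cell, with summed signals of 654 and 6208. Col1a1, Col3a1, Pdgfrb, Twist1, Foxc1, Foxc2, Lum and Dcn were below the limit in both cells, at most 117 in the embryonic cell and 120 in the newborn cell. Of 8 pigment epithelium genes, Trpm1 (6301) was above background in the embryonic cell and Rlbp1 (16125) in the newborn cell. The summed signals of the list were 6662 and 16322. Tyr, Tyrp1, Dct, Pmel, Mitf and Rpe65 were below the limit in both cells, at most 121 in the embryonic cell and 45.1 in the newborn cell. The sums therefore give no reading of pigment epithelium identity. Of 6 vascular genes, Rgs5 (833) was above background in the newborn cell, with summed signals of 209 and 1346. The summed signals of the ganglion cell list were 457 and 1395. The part of these markers in the Vax1 and Tbx3 signals was not tested.

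Genes close in signal were sought for 1 member in each direction, Nr2f1 and Vax1, by Euclidean distance between log2 signals over the 2 cells, each raised to its limit. These were the members with the largest bound when 1 probe set stood for a gene. That order rests on the limits: another Tbx3 probe set had a larger bound than Vax1, and the log2 ratio with a pseudocount of 64 was -7.81 for Dach1 and -7.19 for Nr2f1. Closest to Nr2f1 were Shisa2 (14007 in the embryonic cell and 75.2 in the newborn cell), Mtm1 (19331 and 10.6) and Rnf139 (13725 and 64.3). Closest to Vax1 were Fam181b (33.4 and 4957), Usp30 (5.39 and 4976) and Dipk1a (85.8 and 4913). With 2 cells, and 1 of the signals at its limit, this likeness amounts to a similar signal in the brighter cell.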

How the data were processed

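Single cells were lysed, and oligo dT primed cDNA was tailed, amplified by PCR, labelled with biotin and hybridised to an Affymetrix mouse array, per the labels' protocols. The authors deposited 1 signal intensity per probe set and cell on a linear scale, computed with MAS5, per the submitters' processing notes, which scales each array on its own; the mean without the outer 2% at each end was 500.0 on both. Detection calls and scanner files were not used here, and the MAS5 version is not given in the sources used here. Priming at the poly(A) tail favours 3′ ends, and where each probe set lies in its transcript was not determined here. The arrays hold no read depth, and their number limits the precision.

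Symbols came from GEO's platform annotation and, for 34754 of 34958 probe sets with 1 symbol, were updated by gene identifier from RefSeq (GRCm38.p6). A further 932 probe sets had several symbols and 9211 were not listed, and none of these names a gene here. A gene was represented by its probe set of highest mean log2 signal. Values were computed with Python 3.11.15, pandas 2.3.3 and numpy 2.4.6. The members, lists and rules were chosen with earlier results of these data known. The genes named are all members, list genes above a limit, and the 3 nearest genes of the extreme members; a list gene below both limits is named only where its role bears on a member or marks a cell type. The calling was run on simulated data for the P0 against E12.5 comparison. Of 200 bright genes among 18194 changed 8-fold, 99.5% were recovered, and 0 unchanged genes were called. Both simulated cells were drawn from the same values with a chosen noise, a shared limit and no lost transcripts. That noise was smaller than the spread in the data, where log2 ratios of genes above background in both cells had a standard deviation of 1.49. The run therefore checks the calculation only and gives no error rate for these cells. Weaker genes were not simulated.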

Additional observations from a re-analysis of the deposited data

How the results depend on the processing

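The 8 members detected on the probe set that stands for the gene kept their direction in every setting that gave a value. Most settings reuse the same probe set, so this was largely fixed in advance. It does not cover the Meis2 probe set called higher at P0. Nr2f2, detected on another probe set only, varied in sign. Its log2 ratio was -0.16 with the 95th percentile limit, -0.07 with bacterial controls, -0.56 with the brightest probe set, 0.78 with the pseudocount and 1.61 without a limit. The values -0.16 and -0.07 arose because the E12.5 limit in those settings (118 and 111) was above its P0 signal of 106, so their sign is set by the limit. The number of members at least 4-fold higher went from 5 to 2 (embryonic cell) and from 2 to 0 (newborn cell) with the mean over probe sets; Tbx3 then had no value because both means were below their limits. Over all named genes the same setting gave 3216 genes above the P0 limit in place of 5178, and 709 and 891 genes higher in the embryonic and newborn cells in place of 1350 and 1721. With bacterial controls 7909 genes were above the P0 limit. Spike-in scaling gave 2164 and 1098 calls, no limit gave 4115 and 3924, and a 2-fold threshold gave 2294 in the embryonic cell; at 2-fold Tbx2 was also called. The cause of these shifts was not tested beyond what each setting does by construction. The bounds rest on the limits: at the 95th percentile these fell to 118 and 97.3, and the bounds rose. No paired analysis was possible because each age has 1 cell, and for the same reason no replicate could be left out. Signal over background limits what can be said of Tbx5 and Nr2f2.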
